A study of Mus musculus with 6 samples.

Results

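The retinoid visual cycle was examined through 10 genes that encode its enzymes and carriers, taken as every probe set whose single gene symbol in the platform annotation is Rpe65, Lrat, Rdh5, Rdh10, Rdh11, Rdh12, Rlbp1, Rbp3, Stra6 or Ttr. The rule found 18 of the 45037 probe sets tested, and each of the 10 genes had at least 1. One further probe set names Rdh5 together with a second gene and was left out. By the cell type in which each gene is best known, 4 probe sets belonged to photoreceptor genes (Rdh12, Rbp3), 3 to Müller glia genes (Rlbp1, Rdh10), 9 to pigment epithelium genes (Rpe65, Lrat, Rdh5, Stra6, Ttr) and 2 to Rdh11, which is widely expressed.

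Light converts the 11-cis retinal bound to opsin into all-trans retinal, and the visual cycle rebuilds the 11-cis form. In photoreceptors all-trans retinal is reduced to retinol, which travels to the pigment epithelium, where it is esterified, isomerised, oxidised and sent back. Müller glia, the radial glia of the retina, hold retinoid-binding proteins and dehydrogenases of their own, and blood-borne retinol enters the eye through the basal side of the pigment epithelium.

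The samples were retinas of mice about 4 weeks old. There were 3 arrays of prCAD -/- (knockout) mice, which lack the photoreceptor cadherin encoded by Cdhr1, and 3 arrays of wild type mice of strain 129, and each array held RNA from the retinas of 3 pooled mice. The labels do not name the strain of the mutant, so the effect of the knockout and of a difference in strain cannot be told apart. Values are log2 expression values from single-colour Affymetrix arrays, and the submitters present the mutant as a model of retinal degeneration.

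The single Cdhr1 probe set read 3.94, 4.20 and 4.34 in the mutant arrays, against 11.32, 11.36 and 10.98 in the wild type arrays. Retina was recognisable in every array: the 18 rod markers measured averaged between 10.60 and 10.74 in mutant arrays and between 10.65 and 10.90 in wild type arrays. Both arrays numbered 3 stood apart from the others. The SD of their deviations from the group mean, over all probe sets, was 0.25 in mutant replicate 3 and 0.24 in wild type replicate 3, while in the other arrays it was between 0.14 and 0.20. Over all probe sets, 5 passed limma at an adjusted p of 0.05, which is 0.0111% of those tested, and 1360 had an unadjusted p under 0.05, which is 3.02%.

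Promoters of 4 members are shown because the results turn on them: Rpe65 and Rdh5 of the pigment epithelium, which followed the same arrays, and Rdh12 and Rbp3 of the photoreceptors. Each runs 5′ to 3′ on the gene's strand, from 250 bases before to 50 bases after the RefSeq transcription start, in build GRCm38.p6. Capitals mark TAATCC, the core bound by the homeodomain factors OTX2 and CRX, and CATGTG, an E-box bound by the pigment cell factor MITF, on either strand. Rpe65 lies on the plus strand at chr3:159598931-159599230, Rdh5 on the minus strand at chr10:128919248-128919547, Rdh12 on the plus strand at chr12:79208663-79208962 and Rbp3 on the plus strand at chr14:33953753-33954052.
Rpe65: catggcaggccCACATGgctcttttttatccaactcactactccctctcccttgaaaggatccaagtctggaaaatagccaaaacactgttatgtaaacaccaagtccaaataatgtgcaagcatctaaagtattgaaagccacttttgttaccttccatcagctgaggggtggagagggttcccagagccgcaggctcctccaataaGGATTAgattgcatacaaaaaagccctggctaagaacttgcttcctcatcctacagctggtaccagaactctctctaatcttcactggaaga
Rdh5: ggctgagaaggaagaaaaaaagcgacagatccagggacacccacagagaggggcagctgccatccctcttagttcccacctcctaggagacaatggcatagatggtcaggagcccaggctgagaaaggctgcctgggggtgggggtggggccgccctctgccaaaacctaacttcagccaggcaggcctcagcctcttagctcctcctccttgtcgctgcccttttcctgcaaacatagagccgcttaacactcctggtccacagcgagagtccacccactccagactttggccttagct
Rdh12: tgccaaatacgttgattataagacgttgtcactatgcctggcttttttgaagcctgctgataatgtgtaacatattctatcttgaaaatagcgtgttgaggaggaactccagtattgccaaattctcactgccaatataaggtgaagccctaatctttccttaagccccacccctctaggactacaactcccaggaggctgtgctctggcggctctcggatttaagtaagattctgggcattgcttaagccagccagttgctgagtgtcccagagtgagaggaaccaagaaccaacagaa
Rbp3: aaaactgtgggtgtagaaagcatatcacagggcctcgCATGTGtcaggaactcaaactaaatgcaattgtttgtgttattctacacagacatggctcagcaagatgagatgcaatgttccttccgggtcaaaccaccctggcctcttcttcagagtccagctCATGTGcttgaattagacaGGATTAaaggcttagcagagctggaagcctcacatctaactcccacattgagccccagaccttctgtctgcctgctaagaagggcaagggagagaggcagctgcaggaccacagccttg
The Rpe65 window holds 1 match to TAATCC, starting 42 bases before the transcription start, and 1 to CATGTG, starting 239 bases before it. The Rbp3 window holds 1 match to TAATCC, 69 bases before the start, and 2 to CATGTG, 213 and 88 bases before it. The windows of Rdh5 and Rdh12 hold neither motif. Among 32851 promoter windows of this length in the table, 7.06% hold TAATCC, 14.2% hold CATGTG and 7.15% hold the related E-box CACGTG, each searched on both strands, and no matches overlapped in the windows printed. Of the 8 members with a searched window (12 windows in all), 2 hold TAATCC and 3 hold CATGTG (Rpe65, Rbp3 and Rlbp1), and 1 holds CACGTG (Rdh11). Rdh10 and Ttr were not searched. Members are counted here by gene, some with several windows, whereas the shares are of single windows.

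Of the 5 pigment epithelium genes, Rpe65, Rdh5, Stra6 and Ttr had higher values in every prCAD mutant array than in any wild type array, and Lrat overlapped. The photoreceptor dehydrogenase gene Rdh12 was lower in every mutant array, and the Müller glia members, Rbp3 and Rdh11 overlapped between the groups. At each gene's brightest probe set the median difference, mutant minus wild type, was 0.90 on the log2 scale over the 5 pigment epithelium genes, 0.092 over the 2 Müller glia genes and -0.13 over the 2 photoreceptor genes, beside 0.024 over all 18193 named genes. None of these differences passed limma over the whole table: 0 of 18 probe sets did, each with an adjusted p that rounds to 1. In the same fit 7 of 18 had an unadjusted p under 0.05, 5 higher and 2 lower, against 3.02% of all probe sets. The 5 are of Rpe65, Rdh5 and Ttr, and the 2 are of Rdh12. With the replicate number as a block, 0 of 18 passed, with adjusted p-values from 0.494 upward, and 10 had an unadjusted p under 0.05, against 0.0333% and 7.6% of all probe sets. The mutant and wild type arrays did not overlap at 7 probe sets that were higher in the mutant, of which 4 are of Ttr, and at 2 that were lower, both of Rdh12. Of all probe sets, 4.73% were higher without overlap and 3.07% lower without overlap.

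**Figure D1:**
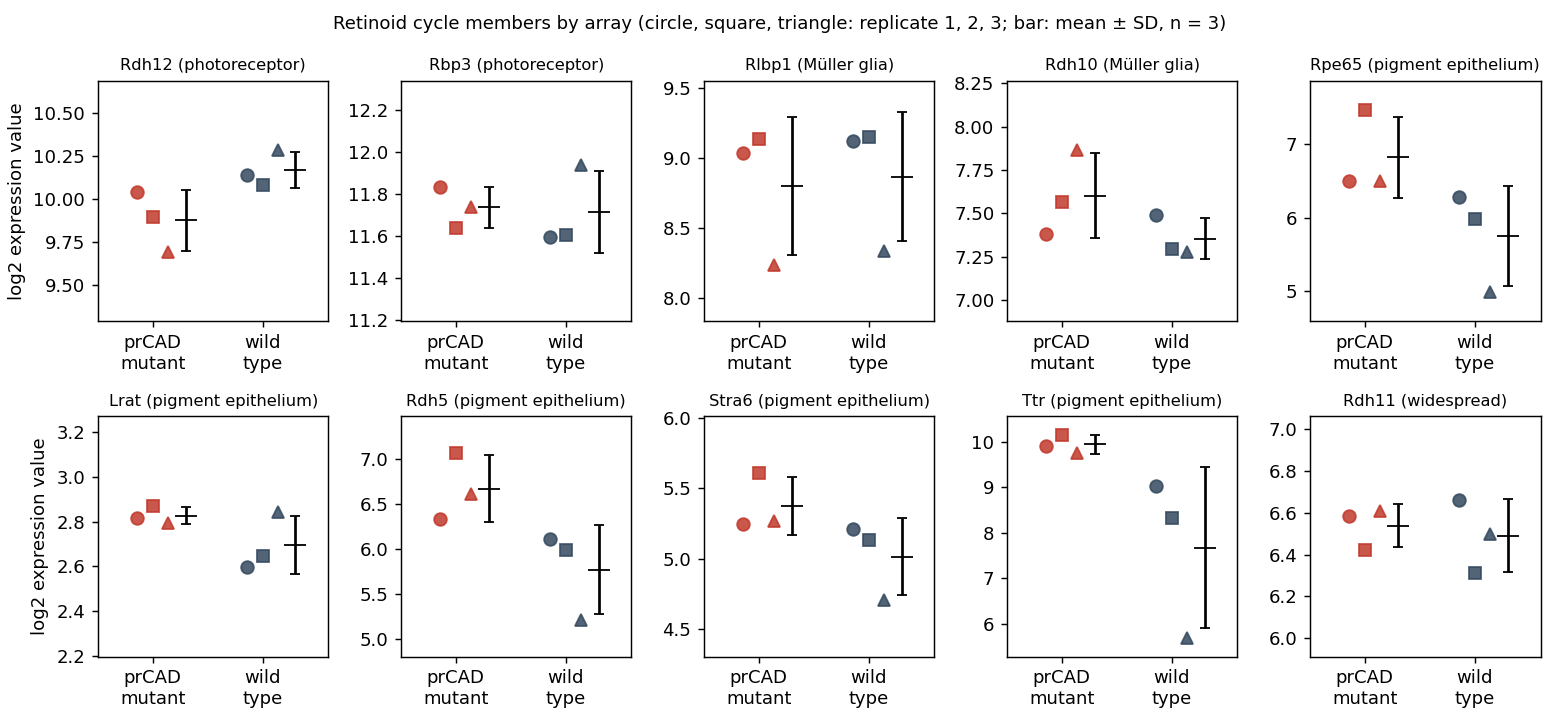
Log2 expression values of the 10 genes at their brightest probe set, with prCAD mutant arrays on the left and wild type arrays on the right of each panel; symbols mark the replicate number, and bars give the mean ± SD (n = 3). Rpe65, Rdh5, Stra6 and Ttr are higher in all mutant arrays and lowest in wild type replicate 3, Rdh12 is lower in all mutant arrays, and the scale differs between panels.

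Among the photoreceptor members, Rdh12 encodes the dehydrogenase of photoreceptor inner segments that reduces all-trans retinal. Its brighter probe set read 10.04, 9.90 and 9.69 in mutant arrays, against 10.14, 10.08 and 10.29 in wild type arrays. Its second probe set read 9.16, 9.25 and 9.09 in mutant arrays, against 9.54, 9.43 and 9.59 in wild type arrays. Both probe sets were lower in every mutant array than in any wild type array. The differences were -0.29 (SE 0.12, 95% interval -0.58 to -0.012) and -0.35 (SE 0.093, 95% interval -0.57 to -0.13), which is a level 1.23-fold and 1.28-fold lower. Within the pairs of same-numbered arrays the brighter probe set differed by -0.10, -0.18 and -0.60 and the second by -0.38, -0.19 and -0.50. Without both replicate 3 arrays the differences were -0.14 and -0.28.

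Rbp3 encodes the interphotoreceptor retinoid-binding protein, which photoreceptors secrete and which carries retinoids between them and the pigment epithelium. Its main probe set was among the brightest of the table, at 11.84, 11.64 and 11.74 in mutant arrays, against 11.59, 11.60 and 11.94 in wild type arrays. The groups overlapped, and the difference was 0.026 (SE 0.12, 95% interval -0.27 to 0.32), with pair differences of 0.24, 0.035 and -0.20. The second Rbp3 probe set lies near the middle of all probe sets and read 4.08, 4.38 and 4.98 in mutant arrays, against 4.72, 4.61 and 6.12 in wild type arrays. It was lower in the mutant array of each pair, by -0.64, -0.23 and -1.14, but the groups overlapped and the 2 probe sets of the gene disagree. Without wild type replicate 3 its difference was -0.19 in place of -0.67.

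Of the rod markers given for comparison, Sag (rod arrestin) was 0.26 higher (SE 0.094) and Gnat1 (the rod transducin alpha subunit) differed by -0.049 (SE 0.11). Of the 18 rod markers 14 lay lower (7572 of all 18193 named genes did), at a median difference of -0.19, and 0 passed limma. The rod marker list was highest in wild type replicate 3 for 10 of its 18 genes, and so were both photoreceptor members. The share of all named genes highest in that array was not computed. In whole retina, fewer cells of a type and less RNA per cell cannot be told apart.

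The Müller glia members overlapped between the groups. Rlbp1 encodes cellular retinaldehyde-binding protein, which holds 11-cis retinoids in Müller glia and also in the pigment epithelium. It read 9.03, 9.14 and 8.23 in mutant arrays, against 9.12, 9.15 and 8.33 in wild type arrays. The low values are the 2 arrays numbered 3, which differed from the mean of the other arrays by -0.85 in the mutant group and by -0.80 in the wild type group. The gene thus differed more between replicate numbers than between genotypes: its pair differences were -0.084, -0.012 and -0.099, and the fitted difference was -0.065 (SE 0.31).

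Rdh10 encodes a retinol dehydrogenase of Müller glia and pigment epithelium that also works in retinoic acid synthesis. Its brighter probe set read 7.38, 7.56 and 7.86 in mutant arrays, against 7.49, 7.29 and 7.28 in wild type arrays. Mutant replicate 3 was the highest and mutant replicate 1 lay among the wild type values. The difference was 0.25 (SE 0.14, 95% interval -0.088 to 0.58), and 0.14 (SE 0.098) at the second probe set, whose pair differences of 0.17, 0.16 and 0.084 all ran the same way. At the brighter probe set the difference was 0.12 without mutant replicate 3 and 0.080 without both replicate 3 arrays. Of 20 Müller glia markers 14 lay higher in the mutant (10621 of all 18193 named genes did), at a median difference of 0.15, and 0 passed. The brightest 2, Clu (clusterin) and Glul (glutamine synthetase), differed by 0.70 and -0.081.

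Rpe65 encodes the isomerohydrolase of the pigment epithelium, which turns all-trans retinyl esters into 11-cis retinol. It read 6.50, 7.46 and 6.50 in mutant arrays, against 6.29, 5.98 and 4.98 in wild type arrays. All mutant arrays lay above all wild type arrays, with mutant replicate 2 highest and wild type replicate 3 lowest. The mean was 6.82 ± 0.56 in mutant and 5.75 ± 0.68 in wild type retina (SD, n = 3 each), a difference of 1.07 (SE 0.39, 95% interval 0.15 to 2.00), or 2.10-fold. The difference was 0.22 in pair 1 and 1.48 and 1.52 in the other pairs, and without wild type replicate 3 it was 0.69.

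Rdh5 encodes the dehydrogenase that oxidises 11-cis retinol to 11-cis retinal. It read 6.33, 7.06 and 6.61 in mutant arrays, against 6.11, 5.99 and 5.21 in wild type arrays. The order of the arrays resembled that of Rpe65, again with mutant replicate 2 highest and wild type replicate 3 lowest. The difference was 0.90 (SE 0.28, 95% interval 0.24 to 1.55), or 1.86-fold, and within pairs 0.22, 1.07 and 1.39. It was 0.61 without wild type replicate 3.

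Stra6 encodes the membrane receptor that takes up retinol from its plasma carrier. It read 5.25, 5.61 and 5.27 in mutant arrays, against 5.21, 5.13 and 4.70 in wild type arrays. The groups did not overlap, but mutant replicate 1 and wild type replicate 1 differed by only 0.039. The difference was 0.36 (SE 0.17, 95% interval -0.038 to 0.76), within pairs 0.039, 0.48 and 0.56, and 0.20 without wild type replicate 3.

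Ttr encodes transthyretin, the carrier of thyroid hormone and of the retinol-binding protein, which in the eye is made by the pigment epithelium and the ciliary epithelium. At its brightest probe set it read 9.91, 10.16 and 9.77 in mutant arrays, against 9.03, 8.32 and 5.68 in wild type arrays. The mutant arrays lay close together, and wild type replicate 3 differed from the mean of the other wild type arrays by -2.99. The mean was 9.95 ± 0.20 in mutant and 7.68 ± 1.76 in wild type retina (SD, n = 3 each), a difference of 2.27 (SE 0.78, 95% interval 0.43 to 4.10), or 4.82-fold. Without wild type replicate 3 the difference was 1.27, and within pairs it was 0.88, 1.84 and 4.08.

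The other probe sets of Ttr gave the same order of groups. The second read 8.97, 9.75 and 9.37 in mutant arrays, against 8.67, 8.28 and 6.63 in wild type arrays. The next probe set read 8.99, 9.74 and 8.96 in mutant arrays, against 8.34, 8.04 and 4.21 in wild type arrays. The dimmest read 8.44, 8.69 and 8.30 in mutant arrays, against 7.46, 6.95 and 4.12 in wild type arrays. No probe set showed an overlap, and the 4 differences were between 1.50 and 2.37, with wild type replicate 3 lowest at each. The 4 probe sets measure 1 gene in the same RNA, so they are no independent evidence. The suffixes _x_at and _s_at mark probe sets that can also bind other transcripts. The brightest and the dimmest Ttr probe sets carry _x_at, and the one next after the second carries _s_at. Only the second carries neither, and it gave the smallest difference, 1.50 (SE 0.51), or 2.82-fold.

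Lrat encodes lecithin retinol acyltransferase, which makes the retinyl esters that the isomerohydrolase uses. Both of its probe sets were dim, between 2.50 and 3.05 in every array, below the median of 4.76 over all values. At the brighter one it read 2.82, 2.87 and 2.79 in mutant arrays, against 2.60, 2.64 and 2.84 in wild type arrays. The groups overlapped, and at this level a difference in Lrat could not be measured.

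**Figure D2:**
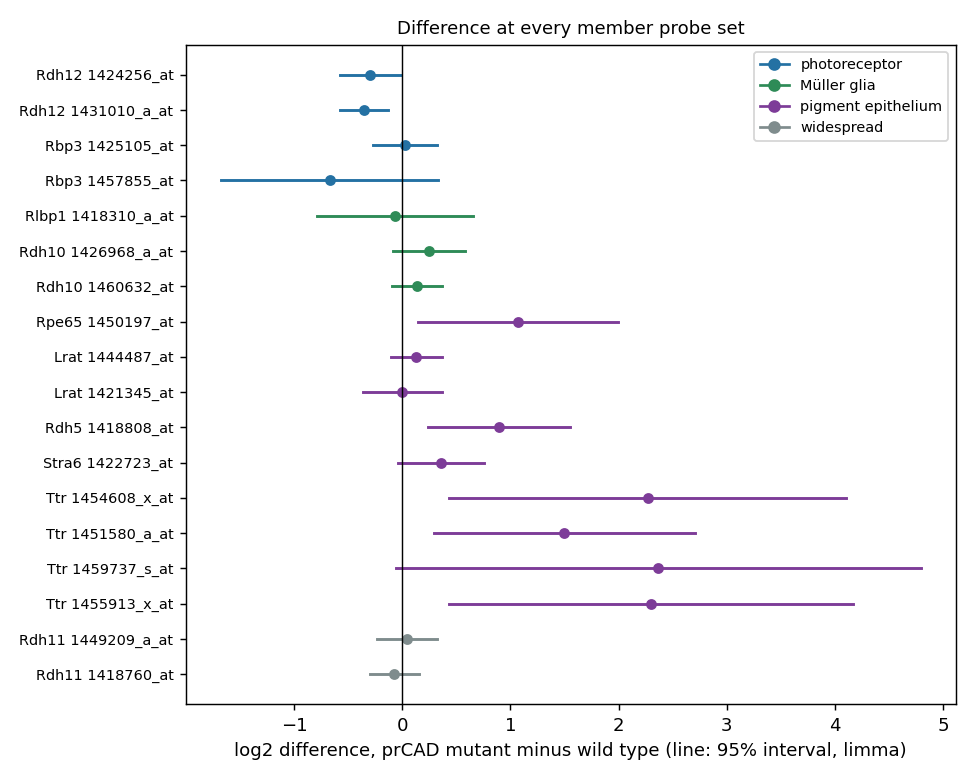
Difference in log2 value, prCAD mutant minus wild type, at the 18 member probe sets (points), with 95% intervals from limma (lines); colours give the cell type in which the gene is best known. The Ttr probe sets lie between 1.50 and 2.37 with wide intervals, Rpe65 at 1.07 and Rdh5 at 0.90, both Rdh12 probe sets lie below 0, and 0 of 18 passed the adjusted threshold.

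Rdh11 encodes a retinol dehydrogenase that is found in many tissues and acts in the pigment epithelium as well. In GRCm38.p6 gene order it is the direct neighbour of Rdh12 on chromosome 12. Its brighter probe set read 6.58, 6.42 and 6.61 in mutant arrays, against 6.66, 6.31 and 6.50 in wild type arrays. The groups overlapped, with a difference of 0.047 (SE 0.12, 95% interval -0.23 to 0.33). The second probe set differed by -0.072 (SE 0.095). The difference between the 2 genes was not tested.

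The wider retinoid list held 38 genes of retinoid binding, oxidation, reduction, cleavage and nuclear reception, of which 33 were measured. Of these, 22 lay higher in the mutant and 11 lower, against 10621 and 7572 of all 18193 named genes. The median difference was 0.057, and 0 passed limma over the whole table. At 8 of 33 genes the mutant arrays were higher without overlap and at 0 lower, against 5.89% and 2.88% of all named genes. Of the 33 genes, 14 had a mean below the median of 4.76 over all values. Rdh9, Rdh16, Rbp7, Bco2 and Aldh1a7, which are among the 8, were dim in this sense.

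Rgr, an opsin of the pigment epithelium and Müller glia that turns all-trans to 11-cis retinal in light, had the smallest p of this list. It read 6.99, 7.49 and 6.96 in mutant arrays, against 6.27, 6.17 and 4.79 in wild type arrays. The order again had mutant replicate 2 highest and wild type replicate 3 lowest, as in Rpe65, Rdh5, Stra6 and Ttr. The difference was 1.40 (SE 0.39), and 0.92 without wild type replicate 3. Rrh, which encodes peropsin of the pigment epithelium, overlapped between the groups: it read 7.12, 7.39 and 6.84 in mutant arrays, against 7.48, 7.19 and 6.32 in wild type arrays, a difference of 0.12 (SE 0.30).

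Abca4, the photoreceptor transporter that clears retinal conjugates from disc membranes, read 9.32, 8.90 and 8.99 in mutant arrays, against 9.22, 9.01 and 11.00 in wild type arrays. Wild type replicate 3 was by far the highest. Its difference of -0.67 (SE 0.49) rested on that array and was -0.043 without it. Other genes of the list with small p were Aldh1a7, an aldehyde dehydrogenase gene (0.43, SE 0.13), and the short-chain dehydrogenase genes Dhrs7 (0.31, SE 0.11) and Dhrs4 (0.24, SE 0.10). Aldh1a1, the retinaldehyde dehydrogenase of the dorsal retina, came next at 0.25 (SE 0.13). The retinoic acid and retinoid X receptor genes Rara, Rarb, Rarg, Rxra, Rxrb and Rxrg overlapped between the groups, with differences between -0.12 and 0.037.

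**Figure D3:**
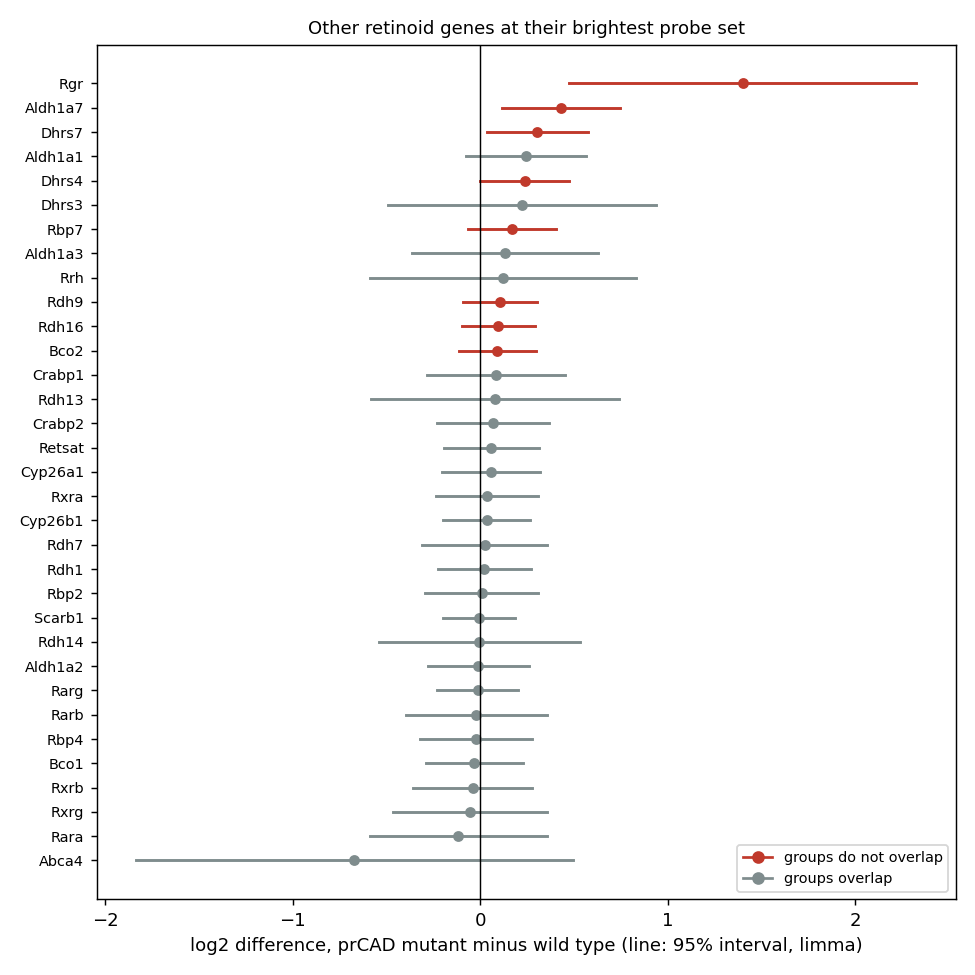
Difference in log2 value, prCAD mutant minus wild type, for the 33 measured genes of the wider retinoid list at their brightest probe set, with 95% intervals from limma (lines). Genes whose groups do not overlap are red: these are 8 genes, all higher in the mutant, with Rgr at 1.40 farthest from 0, while Abca4 at -0.67 has the widest interval.

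Most other genes of the pigment epithelium and of pigment cells lay on the same side as the retinoid members. Of 23 measured markers, 21 lay higher in the mutant (10621 of all 18193 named genes did) and 12 without overlap (5.89% of all named genes did). The median difference was 0.22, and 0 passed limma. The 5 with the smallest p were the heparan sulfate sulfatase gene Sulf1 (0.87, SE 0.14), the amino acid transporter gene Slc6a20a (0.92, SE 0.19), the melanosome protein gene Mlana (0.88, SE 0.21), Gpnmb, a glycoprotein gene of pigment cells and phagocytes (0.77, SE 0.19), and the melanin enzyme gene Tyrp1 (0.68, SE 0.19). Slc6a20a was dim, with a mean of 3.78 over the 6 arrays. It is among the 6 of 23 markers below the median of 4.76 over all values. Best1, the chloride channel gene of the pigment epithelium, differed by 0.0058 (SE 0.10) and was named after its value was seen, as were Dct, Pmel, Slc45a2, Gpr143, Tyr and Oca2 below. The mean over the 23 markers was between 5.96 and 6.13 in mutant arrays and between 5.51 and 5.84 in wild type arrays. How much pigment epithelium each dissected retina carried is not stated in the labels, and its part in the differences of Rpe65, Rdh5, Stra6 and Ttr was not tested.

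The genes named here differed in which array was highest. Of all 23 pigment epithelium markers, 9 were highest in mutant replicate 1, 6 in mutant replicate 2 and 5 in mutant replicate 3. The other 3 were highest in wild type replicate 2. Rpe65, Rdh5, Stra6, Ttr and Rgr were highest in mutant replicate 2, whereas Mlana, Gpnmb, Tyrp1, Dct (dopachrome tautomerase) and Pmel (the melanosome fibril protein) were highest in mutant replicate 1. Of the other melanin genes on the list, Slc45a2 and Gpr143 were highest in mutant replicate 2, as Rpe65 was, and Tyr and Oca2 in mutant replicate 3. Best1 and the lactate transporter gene Slc16a8 were also highest in mutant replicate 2, Sulf1 in mutant replicate 1 and Slc6a20a in mutant replicate 3. Dct, Pmel, Tyr and Oca2 were lowest in wild type replicate 3, as was Rpe65. In pair 1 Rpe65 differed by 0.22, Rdh5 by 0.22 and Stra6 by 0.039, while Mlana read 6.39 in mutant replicate 1 against 5.03 in wild type replicate 1 and Tyrp1 read 7.30 against 6.09. Measured relative to the mean of the 23 markers in the same array, Rpe65 was 0.69 higher in the mutant, Rdh5 0.52 and Ttr 1.89. Stra6 differed by -0.019 and Lrat, which was dim, by -0.25. That mean includes the 6 markers below the median of 4.76 over all values. In pair 1 the relative differences were -0.22 for Rpe65, -0.22 for Rdh5 and 0.45 for Ttr. They were 1.23, 0.82 and 1.59 in pair 2 and 1.07, 0.94 and 3.63 in pair 3. For Rpe65 and Rdh5 they thus did not keep 1 direction.

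**Figure D4:**
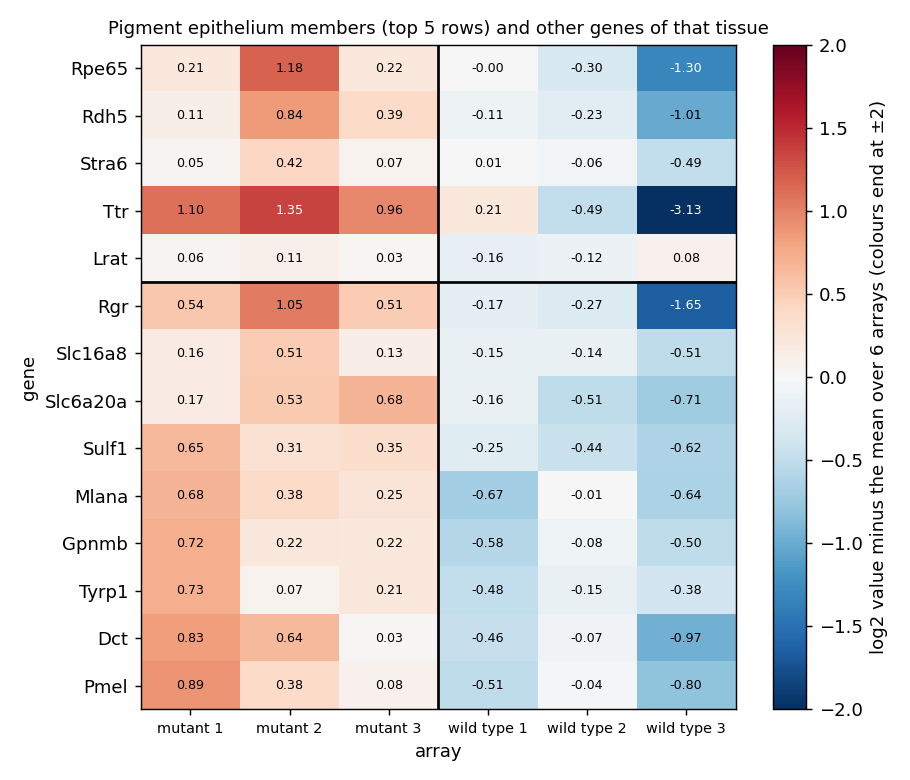
Log2 value minus the gene's mean over the 6 arrays, with mutant arrays left of wild type arrays, for the 5 pigment epithelium members (top) and 9 other genes of the pigment epithelium or pigment cells. Rpe65, Rdh5, Stra6, Ttr and Rgr peak in mutant replicate 2 and Mlana, Gpnmb, Tyrp1, Dct and Pmel in mutant replicate 1, while Lrat is nearly flat. Slc16a8 peaks in mutant replicate 2, Sulf1 in mutant replicate 1 and Slc6a20a in mutant replicate 3. Only some of the 23 pigment epithelium markers are shown, and 11 of the 23 overlapped between the groups.

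Over the 6 arrays, the values of Stra6 and Rdh5 followed those of Rpe65 most closely among the members (Pearson r 0.996 and 0.983), followed by Ttr (0.925). This is a description of 6 arrays that share genotype, dissection and array effects. Among 11799 other named genes above the median level, the 5 most like Rpe65 were Rflnb, Fgd2, Ascl2, Pak3 and Slc16a8. Their r was between 0.974 and 0.984. These are the highest values of a search of that size over only 6 arrays, and no r was tested. Slc16a8, the lactate transporter gene of the pigment epithelium, differed by 0.53 (SE 0.15). Rflnb, Fgd2, Ascl2 and Pak3 differed by 0.094, 0.27, 0.26 and 0.082. The 5 most like Ttr in the same search were Plcb4, Otud7a, Mrpl45, Pmpca and Ptgds, with r between 0.984 and 0.993. Ptgds, the prostaglandin D synthase gene, differed by 0.78 (SE 0.28). Plcb4, Otud7a, Mrpl45 and Pmpca differed by 0.28, 0.24, 0.25 and 0.19. The median r of the 23 pigment epithelium markers was 0.662 with Rpe65 and 0.686 with Ttr.

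Markers of tissue next to the retina also varied between the arrays, and whether the amount of that tissue varied was not tested. The 16 lens markers had a mean between 9.95 and 10.91 in mutant arrays and between 8.95 and 10.72 in wild type arrays, and 15 of the 16 were lowest in wild type replicate 3, the array in which Rpe65, Rdh5, Stra6 and Ttr were lowest. The brightest 2, Cryaa and Cryba1, which encode crystallins, differed by 0.43 (SE 0.25) and 0.55 (SE 0.34). The 11 markers of ciliary body, iris and choroid had a mean between 5.25 and 5.30 in mutant arrays and between 5.03 and 5.20 in wild type arrays, and their brightest 2, the aquaporin gene Aqp1 and the protease inhibitor gene Wfdc1, differed by -0.25 (SE 0.16) and 0.051 (SE 0.15). The part of either tissue in the Ttr difference was not tested. Wild type replicate 3 was also lowest for 14 of 23 pigment epithelium markers and 11 of 20 Müller glia markers, against 1 of 18 rod markers. For these counts, those of the lens markers included, the share over all named genes was not computed. Wild type replicate 3 deviated most of the wild type arrays over all probe sets (SD 0.24, against 0.16 and 0.15). With wild type replicate 3 left out, the median difference was 0.61 for the pigment epithelium members, -0.049 for the photoreceptor members and 0.22 for the lens markers, against 0.90, -0.13 and 0.71 with all arrays.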

How the data were processed

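RNA of pooled retinas was measured on 6 arrays. The deposited values are log2 expression values that the authors computed with RMA (version not stated), according to the submitters' processing notes. RMA normalizes arrays to a common distribution, so differences in total signal are removed. Of 45101 probe sets 64 manufacturer controls were left out. Genes were named through the array's annotation, in which 34945 probe sets have 1 symbol, 932 several, and 9160 are not named here. No genome build is stated there. Promoters are RefSeq's, in GRCm38.p6; 8 of 10 members had a window that was searched.

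Groups followed the sample titles. The test was limma 3.58.1 (lmFit and eBayes, R 4.3.3) on group alone, fitted on 45037 probe sets with Benjamini-Hochberg adjustment at 0.05, and it was tested on simulated data. Lists are described by counts and medians at each gene's brightest probe set. The labels do not say that arrays of a group are separate cohorts, so p-values measure the spread between these arrays. Same-numbered arrays deviated together (r of 0.477, 0.469 and 0.563 across probe sets). On this evidence alone the numbers were treated as pairs in the pair differences and in the replicate block, but not in the main test. The alternatives were the replicate block, a filter on dim probe sets, further normalizations, other variance settings, array weights, another threshold, averaging the probe sets of each gene and leaving out arrays. The members, lists and named genes were chosen with earlier results of these data known: named are all members, up to 5 genes with the smallest p per retinoid or pigment list together with direct visual cycle genes, the 2 brightest markers of other lists, and the 5 genes most like Rpe65 and Ttr. Figures were drawn with matplotlib 3.10.9.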

Additional observations from a re-analysis of the deposited data

How the results depend on the processing

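With 3 arrays in each group, only differences well above the spread between arrays can pass. No member probe set passed under any alternative run, the replicate block and the leaving out of arrays included. The number of all probe sets past the threshold was 5, and 15 with the replicate block, 25 with array weights, 16 without both replicate 3 arrays and 2 to 9 without single arrays. The replicate block leaves every difference of a member the same by design, because each number holds a mutant and a wild type array. It changed no call of a member. At the brightest probe sets the SE went from 0.39 to 0.26 for Rpe65 and from 0.31 to 0.080 for Rlbp1. For Rdh12 it went only from 0.119 to 0.117. At the brightest probe sets, the differences of Rpe65, Rdh5, Stra6, Ttr, Rdh12, Rdh10 and Lrat kept their direction in every alternative run. Lrat was too dim for a difference to be measured. Its second probe set differed by 0.0001 with all arrays and by -0.083 without both replicate 3 arrays. For Rpe65, Rdh5, Stra6, Ttr and Rdh12, whose groups did not overlap, leaving out or weighting arrays could not have reversed the direction. The dim filter and the other variance settings leave a difference unchanged by design. Rbp3 turned to -0.023 without mutant replicate 1, -0.034 without wild type replicate 1 and -0.028 without wild type replicate 2, and over all single arrays left out it ran from -0.034 to 0.14. Rlbp1 turned to 0.22 without mutant replicate 3, 0.060 without wild type replicate 1 and 0.076 without wild type replicate 2, and ran from -0.33 to 0.22. Rdh11 turned to -0.042 without wild type replicate 2 and ran from -0.042 to 0.13. Without single arrays the median of the Müller glia members ran from -0.061 to 0.19, below 0 without wild type replicate 3, and that of the pigment epithelium marker list from 0.16 to 0.33. The median of the photoreceptor members, -0.13, ran from -0.20 to -0.049 without single arrays, and was -0.0023 without both replicate 3 arrays and -0.32 with each gene taken as the average over its probe sets. The cause was not tested. Lrat has no value under the dim filter.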
